A study of Mus musculus with 12 samples.

Results

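The 10 genes described here carry MHC class I antigen presentation: the heavy chains *H2-K1*, *H2-D1* and *H2-T23*, the shared light chain *B2m*, the peptide transporter subunits *Tap1* and *Tap2*, the loading chaperone tapasin (*Tapbp*), the immunoproteasome subunits *Psmb8* and *Psmb9*, and the transactivator *Nlrc5*. They were chosen by symbol, and all 10 were found among the 35727 genes of the count table and passed the filter on low counts, which kept 15506 genes. Bulk RNAseq had been carried out on fibroblasts from pooled hearts of newborn mice, isolated by the surface marker THY1 and grown in EGM2, an endothelial growth medium. They were infected with *Sox17* and *Erg* retroviruses to give induced endothelial cells (iECs), or served as controls, whose libraries carry the name of the retroviral vector, PMX. For characterizing iECs, the paper describes a removal of PECAM1-positive cells during fibroblast isolation. RNA was taken on Day 3 and Day 7 and after 4 weeks. The 12 libraries form 6 groups of 2, and the labels give only treatment, time and a replicate number for each. The mice were *C57BL/6J* or *Tcf21*-CreERT2 crossed with *Rosa26*-tdTomato, and the strain behind each library was not given in the sources used here. The cultures were not sorted for converted cells, so each *Sox17*-*Erg* library holds whatever mixture of converted and other cells was in the dish.

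Almost every nucleated cell shows fragments of its own proteins on MHC class I. Proteasomes cut the proteins, the immunoproteasome subunits replace the constitutive ones where interferon has acted, TAP carries the peptides into the endoplasmic reticulum, and tapasin holds TAP next to empty heavy chain and β2-microglobulin until a peptide fits. The loaded complex is read at the surface by CD8 T cells, and its absence or presence by natural killer cells. NLRC5 switches on most of these genes together from a promoter module that it shares with RFX, CREB1 and NF-Y, and interferons act through STAT and IRF factors. Endothelial cells normally present antigen to circulating T cells through this pathway.

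The results below compare transcript levels of genes whose promoters share short motifs, so promoter sequence is shown first. The RefSeq promoter sequences used here covered 9 start sites of 8 of the 10 genes on GRCm38.p6, and *Tap2* and *Nlrc5* were not among them. The 250 bases before each start were searched on both strands. CCAAT, the letters bound by NF-Y, stood in 7 of the 8 genes and in 33.8% of 32851 promoters. TGACG, the core of CREB and ATF sites, stood in 5 genes (*H2-K1*, *H2-D1*, *B2m*, *Tap1*, *Psmb9*) and in 17.8% of promoters. The windows of *Tap1* (17:34187306-34187555) and *Psmb9* (17:34187331-34187580) overlap, and their CCAAT and their TGACG are the same bases. Each of these sites is counted for both genes. GAAA, 2 letters and GAAA, an interferon-stimulated response element, stood in *H2-T23* and *B2m* and in 2.98% of promoters. GGGNNTTCC, the kind of site bound by NF-κB, stood in *H2-K1* and *H2-D1* and in 4.98% of promoters. TTCNNNGAA, the letters of a STAT site, stood in *Psmb8* only of the 8 and in 7.02% of promoters. CGGAAG, an ETS core of the kind ERG binds, stood in 0 of the 8 and in 13.6% of promoters, and ACAAT, a core of SOX sites, in 0 of the 8 and in 27.7%. These are matches of letters in a short window, and say nothing of binding in these cells.

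The upstream stretches of *H2-K1* and *B2m* are printed because each holds several of these motifs within little more than 100 bases, one for a heavy chain and one for the light chain. Capitals mark, in order, the κB-like site, TGACG and CCAAT (here on the other strand, as ATTGG) in *H2-K1*, at chr17:34000354-34000467 on the minus strand, and the interferon response element, TGACG and CCAAT (again as ATTGG) in *B2m*, at chr2:122147542-122147643 on the plus strand.
H2-K1: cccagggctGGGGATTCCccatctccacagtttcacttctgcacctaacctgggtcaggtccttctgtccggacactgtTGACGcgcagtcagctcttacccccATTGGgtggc
B2m: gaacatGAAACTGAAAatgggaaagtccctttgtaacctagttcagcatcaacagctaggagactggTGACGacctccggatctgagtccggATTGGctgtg

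*H2-K1* and *H2-D1* are close relatives, and their κB-like sites lie in nearly the same letters. Over the 30 bases around the site, in capitals, 29 were identical between chr17:34000434-34000463 (*H2-K1*, minus strand) and chr17:35262918-35262947 (*H2-D1*, plus strand).
H2-K1: gggctGGGGATTCCccatctccacagtttc
H2-D1: gggctGGGGATTCCccatctcctcagtttc

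Library totals ran from 19011635 to 41240449 counts. Endothelial markers stood apart by treatment: 8 of them summed to between 18.9 and 58.6 CPM (counts per 1000000 of the library, scaled with TMM factors) in the 6 control libraries and between 311.7 and 706.1 CPM in the 6 *Sox17*-*Erg* libraries. At a Benjamini-Hochberg adjusted p under 0.05 (edgeR), 4, 5 and 6 of the 8 rose at Day 3, Day 7 and 4 weeks. Of all genes tested 7.19%, 9.48% and 11.9% rose. *Cdh5*, which makes VE-cadherin and was the largest part of the sum in each *Sox17*-*Erg* library, was between 0.230 and 14.3 CPM in controls. With *Sox17*-*Erg* it was between 148.1 and 495.9 CPM. The fibroblast marker *Tcf21* was between 179.1 and 582.5 CPM in controls and still between 14.98 and 173.6 CPM with *Sox17*-*Erg*. All 10 genes were read deeply enough to be counted in every library, from 6512 to 38453 counts for *B2m* down to 12 to 129 counts for *Nlrc5* and 19 to 142 for *Psmb9*. In bulk RNA, fewer cells of a type and less RNA per cell cannot be told apart.

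Transcripts of the pathway were lower with *Sox17*-*Erg* than in controls. Averaged over the 3 time points, 10 of 10 genes fell at a Benjamini-Hochberg adjusted p under 0.05 in edgeR's quasi-likelihood test, with log2 fold changes between -1.60 (*H2-T23*) and -0.32 (*Tapbp*). Of all genes tested, 20.3% were called lower and 22% higher in that comparison. The median over the 10 genes was -0.73, against 0.00 over all genes. By time point, 1 of the 10 was called lower at Day 3 (background 5.13% lower, 7.19% higher), 7 at Day 7 (7.93% lower, 9.48% higher) and 4 at 4 weeks (11% lower, 11.9% higher), and 0 were called higher at any of them. An unadjusted p under 0.05 was reached by 7, 9 and 8 of the 10 at the 3 time points, against 4675, 4932 and 5567 of the 15506 genes. At unadjusted p, 0 of these were higher in *Sox17*-*Erg*. The median log2 fold change was -0.65 at Day 3, was -0.98 on Day 7 and stood at -0.84 at 4 weeks, and those of all genes were 0.01, 0.01 and -0.01.

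Both *Sox17*-*Erg* libraries lay below both controls for 8 of the 10 genes at Day 3, all 10 at Day 7 and 9 of them after 4 weeks. Over all genes tested this share was 29.9%, 28.8% and 32.4%. At all 3 time points this held for 7 of the 10 genes, and for 13.6% of all genes tested. The exceptions were *H2-K1* and *Tap1*, whose groups overlapped at Day 3, and *Tapbp*, whose groups overlapped at 4 weeks. Same-numbered libraries deviated together from their group means at each time point, and with the replicate number as a block 4 genes were lower at Day 3 (*H2-T23*, *Tap2* and *Psmb8* beside *Tapbp*), 9 at Day 7 (with *Tap2* and *Psmb8*) and 6 at 4 weeks. Of all genes the block called 6.64%, 9.42% and 12.2% lower. At 4 weeks the block added *Tap2*, *Psmb8* and *Psmb9*, while *B2m* missed the threshold at an adjusted p of 0.051. With a block within each time point, *B2m* passed as well (0.025), and 4, 9 and 7 genes were called lower, against 10.4%, 13.3% and 15.5% of all genes.

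**Figure D1:**
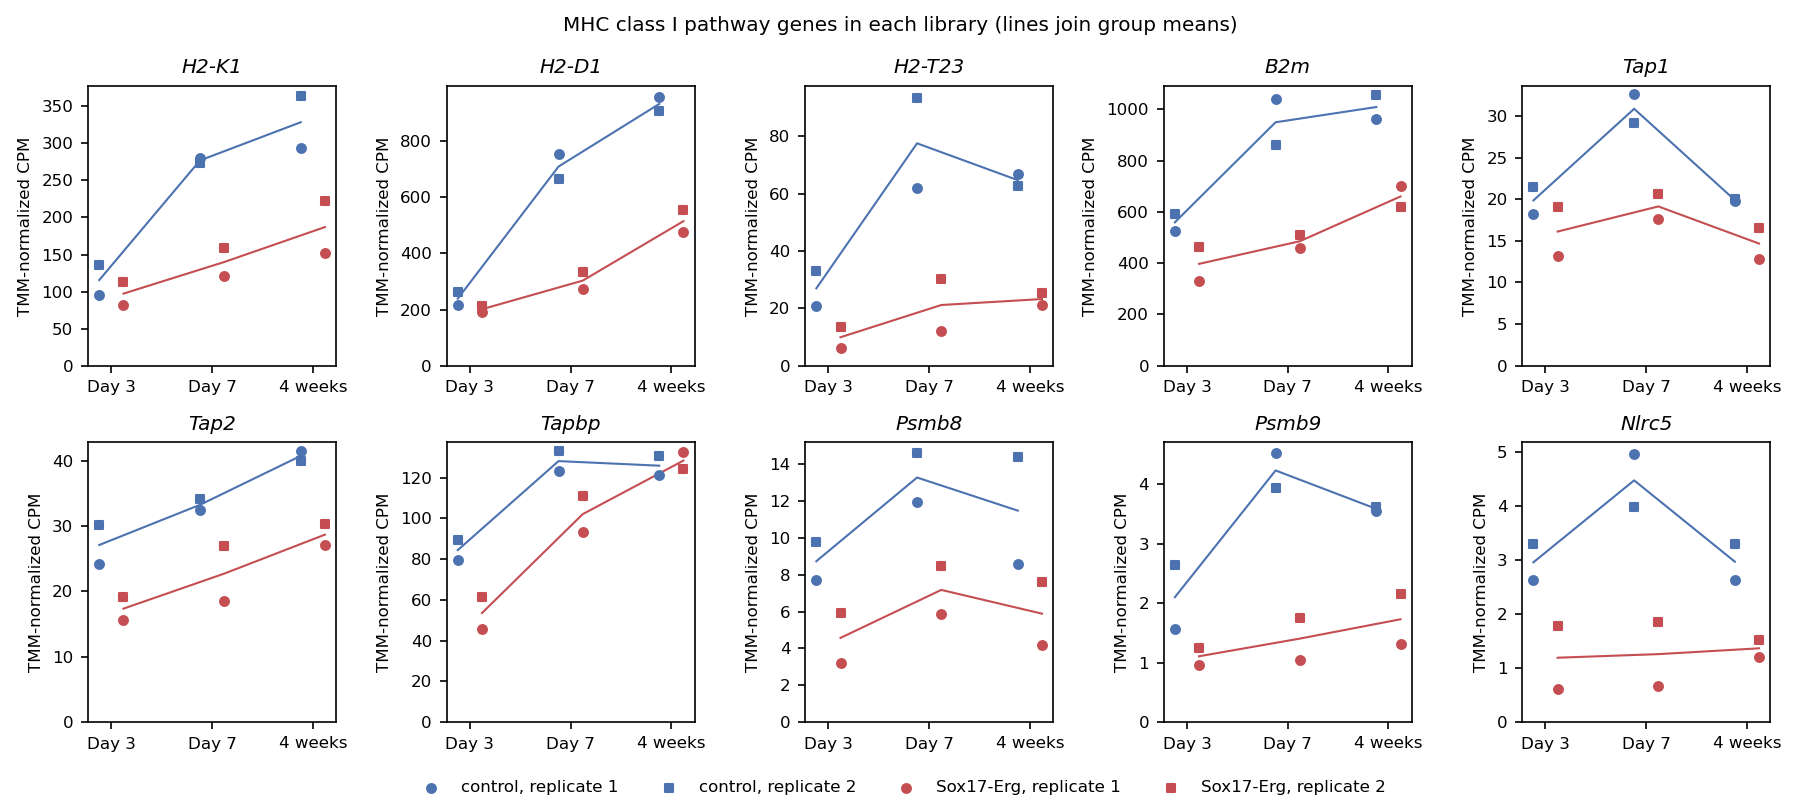
TMM-normalized CPM of the 10 genes (each panel has its own axis, starting at 0) against time, for control (blue) and *Sox17*-*Erg* (red) libraries, with circles for replicate 1, squares for replicate 2 and lines joining the group means. At Day 7 all red points lie below all blue points in every panel, and at 4 weeks the colors meet only in the panel of *Tapbp*, where *Sox17*-*Erg* stood at 132.8 and 124.1 CPM and control at 121.2 and 130.7 CPM.

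The heavy chains hold the peptide and are what the T cell receptor sees. *H2-D1* (ENSMUSG00000073411, 17:35262730-35267499), a classical heavy chain, was at 216.5 and 261.6 CPM in the controls at Day 3, 754.1 and 665.5 CPM at Day 7, and 958.6 and 907.6 CPM at 4 weeks. The treated libraries were at 190.6 and 211.7 CPM, then 272.9 and 333.5 CPM, then 476 and 554.2 CPM. Both groups climbed with time, and the treated libraries lay below the controls at each of the 3 times, narrowly at Day 3 and widely after it. The log2 fold change was -0.25 ± 0.16 (SE of the fit, here and below) at Day 3, -1.23 ± 0.16 at Day 7 (adjusted p = 0.0014, edgeR) and -0.86 ± 0.16 at 4 weeks (0.0051), or 2.34-fold lower at Day 7 and 1.81-fold lower at 4 weeks. Of the 10 genes it had the lowest adjusted p at both later times.

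*H2-K1* (ENSMUSG00000061232, 17:33996017-34000347), the other classical heavy chain measured here, was at 95.8 and 135.3 CPM in controls at Day 3, 280.1 and 273.8 CPM at Day 7, and 293.7 and 363.3 CPM at 4 weeks. The *Sox17*-*Erg* libraries held 81.6 and 112.8 CPM, 120.5 and 159.2 CPM, and 151.6 and 222.4 CPM. The groups overlapped at Day 3, unlike those of *H2-D1*, and were apart at both later times. Its log2 fold change was -0.25 ± 0.25 at Day 3 (adjusted p = 0.55, edgeR), -0.99 ± 0.25 at Day 7 (0.028) and -0.81 ± 0.25 at 4 weeks (0.047).

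*H2-T23* (ENSMUSG00000067212, 17:36029773-36032855) encodes the nonclassical Qa-1 chain, which shows leader peptides of other class I chains to the CD94-NKG2A receptor of natural killer cells. It was at 20.9 and 33.1 CPM in controls at Day 3, 61.9 and 93.2 CPM at Day 7, and 66.9 and 62.5 CPM at 4 weeks. With *Sox17*-*Erg* it was at 6.17 and 13.7 CPM, 11.97 and 30.4 CPM, and 21.1 and 25.4 CPM. The highest treated library, at Day 7, stood below the second control library of Day 3. The 2 treated libraries of Day 3 and of Day 7 differed more than 2-fold, and the SE was correspondingly large: the log2 fold change was -1.43 ± 0.48 at Day 3 (adjusted p = 0.081, edgeR), -1.88 ± 0.47 at Day 7 (0.025) and -1.48 ± 0.46 at 4 weeks (0.048). At Day 7 it was 3.69-fold lower.

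Class I heavy chain genes resemble each other, so counts can be split among them. Of the 31-base words of the transcripts, 22.8% of those of *H2-K1*, 26.7% of those of *H2-D1* and 24.5% of those of *H2-T23* also occurred in another gene. The largest shares were with *H2* genes, such as 11.1% of the words of *H2-K1* found in *H2-D1*. Summing the 3 chains removes a shift between them. The sum was 333.1 and 430.1 CPM in controls at Day 3, 1096 and 1033 CPM at Day 7, and 1319 and 1333 CPM at 4 weeks, and with *Sox17*-*Erg* 278.4 and 338.2 CPM, 405.3 and 523.1 CPM, and 648.7 and 802 CPM. The control mean was 1.24-fold that of *Sox17*-*Erg* at Day 3, 2.29-fold at Day 7 and 1.83-fold at 4 weeks. Over all class I *H2* genes together the ratios were 1.24, 2.18 and 1.79.

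*B2m* (ENSMUSG00000060802, 2:122147686-122153083), the light chain of every class I complex, was at 525.4 and 593.5 CPM in controls at Day 3, 1039 and 860.6 CPM at Day 7, and 963.5 and 1055 CPM at 4 weeks. In *Sox17*-*Erg* libraries it was at 329.5 and 464.9 CPM, 460.7 and 510.3 CPM, and 700.6 and 619.9 CPM. The groups did not overlap at any time point, and the treated libraries of Day 7 still stood below the controls of Day 3. The log2 fold change was -0.49 ± 0.19 at Day 3 (adjusted p = 0.11, edgeR), -0.97 ± 0.19 at Day 7 (0.0087, 1.96-fold lower) and -0.61 ± 0.19 at 4 weeks (0.044). *B2m* shares 0 of its 31-base words with another gene, so its counts do not depend on how reads of *H2* relatives were divided. The gene overlaps *Patl2* on the opposite strand. The paper names a stranded library kit, and whether the counting used strand was not given in the sources used here.

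TAP, the transporter, is made of TAP1 and TAP2. *Tap1* (ENSMUSG00000037321, 17:34187553-34197225) was at 18.2 and 21.5 CPM in controls at Day 3, 32.6 and 29.1 CPM at Day 7, and 19.8 and 19.97 CPM at 4 weeks, against 13.2 and 19 CPM, 17.6 and 20.6 CPM, and 12.9 and 16.5 CPM with *Sox17*-*Erg*. The control level was highest at Day 7, where the rise from Day 3 was not called (adjusted p = 0.072, edgeR), and the difference between treatments in that step was -0.39 ± 0.27 (0.76). Its log2 fold change was -0.30 ± 0.19 at Day 3 (adjusted p = 0.34, edgeR), -0.69 ± 0.19 at Day 7 (0.037) and -0.44 ± 0.19 at 4 weeks (0.14).

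*Tap2* (ENSMUSG00000024339, 17:34203527-34216321), whose product pairs with TAP1, was at 24.1 and 30.1 CPM in controls at Day 3, 32.4 and 34.1 CPM at Day 7, and 41.6 and 40.0 CPM at 4 weeks. The *Sox17*-*Erg* libraries were at 15.5 and 19.2 CPM, 18.6 and 26.9 CPM, and 27.1 and 30.3 CPM. The groups were apart at all 3 times by a like amount, with log2 fold changes of -0.64 ± 0.19, -0.55 ± 0.19 and -0.51 ± 0.19. None of the 3 passed alone (adjusted p = 0.058, 0.074 and 0.083, edgeR), and their mean did, at -0.57 ± 0.11 (0.003).

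*Tapbp* (ENSMUSG00000024308, 17:33915899-33929292), encodes tapasin. Controls were at 79.7 and 89.2 CPM at Day 3, 123.3 and 133.1 CPM at Day 7, and 121.2 and 130.7 CPM at 4 weeks, and *Sox17*-*Erg* libraries at 45.7 and 61.3 CPM, 93.3 and 111 CPM, and 132.8 and 124.1 CPM. The groups were apart at Day 3 and Day 7 and overlapped at 4 weeks. It was the 1 gene of the 10 called at Day 3, with a log2 fold change of -0.66 ± 0.15 (adjusted p = 0.026, edgeR), then -0.33 ± 0.15 at Day 7 (0.17) and 0.03 ± 0.15 at 4 weeks (0.92). The change of its effect from Day 3 to 4 weeks was 0.69 ± 0.21 (adjusted p = 0.13), and passed with the block within time points (0.041) and in DESeq2 (0.044). *Tapbp* overlaps *Zbtb22* on the same strand over 3422 bases, and 4.62% of its words occurred in another gene.

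Immunoproteasome subunits replace a constitutive subunit each and change which peptides are cut. *Psmb9* (ENSMUSG00000096727, 17:34181987-34187764) was at 1.57 and 2.64 CPM in controls at Day 3, 4.53 and 3.94 CPM at Day 7, and 3.56 and 3.62 CPM at 4 weeks. With *Sox17*-*Erg* it was at 0.962 and 1.25 CPM, 1.05 and 1.76 CPM, and 1.31 and 2.15 CPM. The groups were apart at each time, at counts between 19 and 142 per library. The log2 fold change was -0.91 ± 0.39 at Day 3 (adjusted p = 0.15, edgeR), -1.61 ± 0.38 at Day 7 (0.02, 3.05-fold lower) and -1.05 ± 0.37 at 4 weeks (0.071).

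*Psmb8* (ENSMUSG00000024338, 17:34197721-34201454) was at 7.71 and 9.76 CPM in controls at Day 3, 11.9 and 14.6 CPM at Day 7, and 8.57 and 14.4 CPM at 4 weeks. The *Sox17*-*Erg* libraries held 3.19 and 5.95 CPM, 5.87 and 8.48 CPM, and 4.18 and 7.59 CPM. Replicate 2 was the higher library in every group, and the groups did not overlap. The log2 fold changes of -0.93 ± 0.40, -0.89 ± 0.39 and -0.96 ± 0.39 were not called alone (adjusted p = 0.16, 0.15 and 0.11, edgeR), and their mean of -0.93 ± 0.23 was (0.01).

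Levels can be set against the constitutive subunit each one replaces, per length of transcript. *Psmb8* stood at 4.19% and 6.43% of *Psmb5* in the controls of Day 3, at 6.22% and 10.4% in those of Day 7, and at 4.73% and 7.69% in those of 4 weeks. With *Sox17*-*Erg* these levels were 1.39% and 2.99%, 2.33% and 5.25%, and 2.40% and 3.56%. *Psmb9* stood at 1.07% to 3.19% of *Psmb6* in the 6 control libraries and at 0.529% to 1.49% in the 6 treated ones. *Psmb10*, the third immunoproteasome subunit, stood at 31.1% to 62.2% of *Psmb7* in controls and at 17.8% to 38.0% with *Sox17*-*Erg*. Within each time point every treated library had a lower share than both controls for each of the 3 pairs.

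*Nlrc5* (ENSMUSG00000074151, 8:94434356-94527272), the transactivator, was the least abundant of the 10 per length of transcript. Controls were at 2.62 and 3.28 CPM at Day 3, 4.95 and 3.98 CPM at Day 7, and 2.63 and 3.29 CPM at 4 weeks. *Sox17*-*Erg* libraries were at 0.607 and 1.77 CPM, 0.662 and 1.85 CPM, and 1.20 and 1.52 CPM. All 6 treated libraries lay below all 6 controls whatever the time, which held for none of the other 9 genes and for 4.92% of all genes tested. The log2 fold change was -1.29 ± 0.54 at Day 3 (adjusted p = 0.15, edgeR), -1.86 ± 0.54 at Day 7 (0.043, 3.64-fold lower) and -1.12 ± 0.53 at 4 weeks (0.16).

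**Figure D2:**
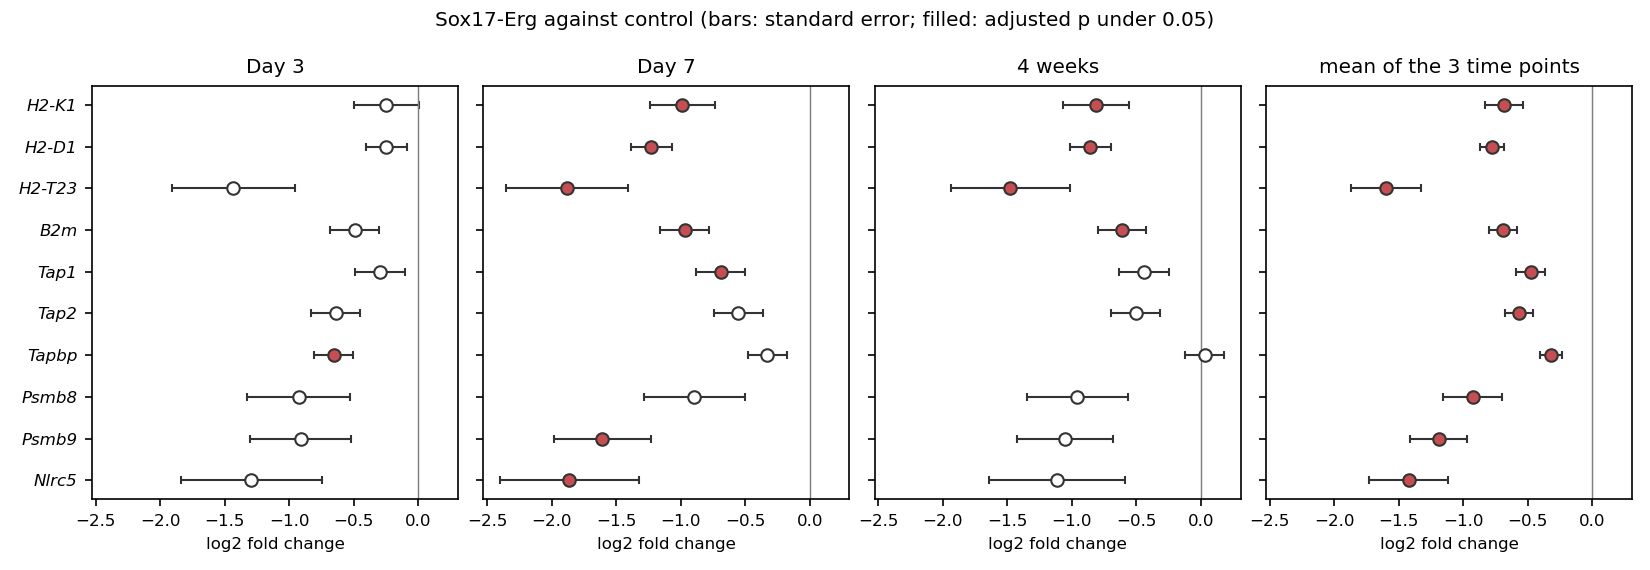
Log2 fold change of *Sox17*-*Erg* against control (horizontal axis) for each of the 10 genes at Day 3, Day 7, 4 weeks and averaged over the 3, with bars for the standard error of the edgeR fit and filled points where the adjusted p is under 0.05. All points but that of *Tapbp* at 4 weeks (0.03) lie left of 0, and the fourth panel, which joins the time points, is filled throughout.

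Per length, *B2m* was the most abundant of the 10 genes in every group. Its level was 1174 ± 75.4 CPM per kb (SD, n = 2) in controls at 4 weeks, above *H2-D1* at 361.8 ± 14.0, *H2-K1* at 111.8 ± 16.8 and *Tapbp* at 34.7 ± 1.86. *H2-T23* (22.4 ± 1.07), *Tap2* (10.8 ± 0.294), *Tap1* (3.63 ± 0.0222), *Psmb8* (3.40 ± 1.22), *Psmb9* (0.981 ± 0.0118) and *Nlrc5* (0.349 ± 0.0552) followed. *Tap1* and *Psmb8* were within their spread of each other. With *Sox17*-*Erg* at 4 weeks the order began with the same 4 genes, at 767.7 ± 66.3, 199.7 ± 21.4, 63.6 ± 17.0 and 35.4 ± 1.71 CPM per kb, and *H2-T23* (8.05 ± 1.06) and *Tap2* (7.59 ± 0.602) were within their spread.

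The heavy chains *H2-D1* and *H2-K1*, *B2m*, *Tap2* and *Tapbp* rose with time in culture, and the other 5 genes were not called. From Day 3 to 4 weeks 5 of the 10 rose in controls (background 13.9% higher) and 5, the same genes, in *Sox17*-*Erg* (15.1%). *H2-D1* rose by 1.96 ± 0.17 on the log2 scale in controls (adjusted p = 0.00022, edgeR) and by 1.36 with *Sox17*-*Erg* (0.00087). *H2-K1* rose by 1.51 (0.004) and 0.94 (0.022), *B2m* by 0.85 (0.011) and 0.73 (0.018), *Tap2* by 0.59 (0.046) and 0.72 (0.02), and *Tapbp* by 0.58 (0.022) and 1.26 (0.00092). *Nlrc5* and *Tap1* were at 0.00 between these times in controls (adjusted p = 1 and 0.99), and *Tap1* at -0.14 in *Sox17*-*Erg* (0.63). *H2-T23*, at 1.26 and 1.22, was not called (0.073 and 0.082), and was with the replicate block (0.014 and 0.016).

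By Day 7, 4 of the 10 had already risen in controls (background 4.7% higher): *H2-D1* by 1.57 (adjusted p = 0.002, edgeR), *H2-K1* by 1.26 (0.022), *B2m* by 0.76 (0.04) and *Tapbp* by 0.60 (0.042). With the replicate block 6 had risen (background 5.58%), with *H2-T23* (0.022) and *Tap1* (0.044) added. In *Sox17*-*Erg* libraries *Tapbp* alone was called, at 0.93 (0.023), beside 2.04% of all genes, while *H2-D1* stood at 0.59 (0.072). The difference between treatments in that step was tested as an interaction. For *H2-D1* it was -0.98 ± 0.23 with an adjusted p of 0.19, at which 0 of the 10 genes and 0.0838% of all genes were called. At an unadjusted p under 0.05, 1 of the 10 and 1381 genes of all passed, and DESeq2 called *H2-D1* (0.0033). Between Day 3 and 4 weeks 0 of the 10 differed in effect (background 3.21%; 2 of 10 and 2623 genes at an unadjusted p under 0.05), and DESeq2 called 1, *Tapbp*.

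Across the 12 libraries the 10 genes ran together. Each gene's correlation with the mean z-score of the 10, which includes the gene itself, lay between 0.744 (*Tap1*) and 0.985 (*H2-T23*), and between pairs from 0.402 (*Tap1* and *Tapbp*) to 0.970 (*H2-K1* and *H2-D1*). By group mean the z-score was lowest in *Sox17*-*Erg* at Day 3, at -1.70 and -0.80 in its libraries, and highest in control at Day 7, at 1.12 and 1.08. Outside the 10, the genes nearest to this pattern over the 12 libraries were *Uba7*, the activating enzyme of ISG15 (r = 0.981), *Ddx60*, an interferon-induced helicase (0.980), *Tnfrsf1a*, the type 1 TNF receptor (0.978), *Gpr182*, an atypical chemokine receptor (0.976), and *Orai1*, a calcium channel (0.976). *Uba7* had group means of 30.8, 54.0 and 54.5 CPM in controls and 19.1, 24.2 and 25.9 CPM with *Sox17*-*Erg* from Day 3 to 4 weeks. These points share treatment, time and replicate number, so the values are descriptions.

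Of the other class I heavy chains of the *H2* locus, 11 of 13 were tested, and 0 fell at Day 3, 1 at Day 7, 2 at 4 weeks and 8 in the mean of the time points, with 0 higher. Over all genes 5.13%, 7.93%, 11% and 20.3% were lower in these comparisons, so that the counts at single times were near the background. At an unadjusted p under 0.05, 3, 7 and 3 were lower at the 3 times and 0 higher, and DESeq2, which called 9.21%, 10.3% and 12.4% of all genes lower, called 0, 1 and 1. *H2-T24* fell by 0.98 at Day 7 (adjusted p = 0.015, edgeR) and by 0.70 at 4 weeks (0.048), and *H2-T10* by 0.77 at 4 weeks (0.036). Their median in the mean of the time points was -0.67, close to that of the 10 genes. Among class I-like molecules outside the locus, which bind lipids, antibodies and other ligands, 5 of 6 were tested, and 1, 1 and 3 fell at the 3 times, beside the same shares of all genes. *Procr*, the endothelial protein C receptor, was at 12.8 and 13.0, 12.8 and 14.0, and 17.7 and 12.1 CPM in controls against 6.58 and 7.45, 3.14 and 4.83, and 4.14 and 3.48 CPM with *Sox17*-*Erg*. It fell by 0.88 (0.045), 1.76 (0.0018) and 1.97 (0.00067). *Fcgrt*, the neonatal Fc receptor, fell by 1.01 at 4 weeks (0.046), and *Cd1d1*, which presents lipids, by 1.15 (0.024). At Day 3 *Cd1d1* had been on the higher side, with a log2 fold change of 0.94 that was not called (0.077). *Mr1*, which presents vitamin B metabolites, was the 1 gene that rose, by 0.87 at 4 weeks (0.036), and stood at -0.65 at Day 3 (0.13). At an unadjusted p under 0.05, 3, 3 and 4 of the 5 were lower and 1, 0 and 1 higher, and DESeq2 called 2, 3 and 3 lower and 0, 0 and 1 higher.

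Of 7 peptide loading and folding genes, 0, 0 and 1 fell at the 3 times (0, 2 and 1 at an unadjusted p under 0.05; 0, 1 and 1 in DESeq2) and 2 in the mean of the time points. Of all genes 5.13%, 7.93%, 11% and 20.3% were lower in these comparisons, so the counts were near the background. The median of the mean effect was 0.12. *Erap1*, which trims peptides in the endoplasmic reticulum, fell by 0.71 at 4 weeks (adjusted p = 0.027, edgeR) and by 0.53 in the mean (0.0048), and *Tapbpl*, a relative of tapasin, by 0.47 in the mean (0.02), while *Calr*, the chaperone calreticulin, had a mean effect of -0.05 (0.78). Of 8 constitutive proteasome genes 0 fell at any time (0, 1 and 0 at an unadjusted p under 0.05, and the same numbers in DESeq2), also near the background. Their median mean effect was 0.17. *Psme3*, the nuclear PA28γ activator, rose by 0.44 at Day 3 (0.023). All 3 further immunoproteasome genes fell in the mean of the time points. Of them *Psmb10* fell by 0.95 at Day 7 (0.027) and 0.88 at 4 weeks (0.028), and *Psme2*, a part of the PA28 activator, by 0.66 at 4 weeks (0.0089); DESeq2 called 2 of the 3 at each of these times.

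The partners of NLRC5 at class I promoters were listed with the class II transactivator CIITA. Of 8 genes for RFX, NF-Y, CREB1 and CIITA, 0 fell at any time in edgeR, in DESeq2 or at an unadjusted p under 0.05. Of all genes 5.13%, 7.93% and 11% were lower in edgeR, and 9.21%, 10.3% and 12.4% in DESeq2. The count of 0 was thus near the background. *Creb1* rose by 0.51 at Day 7 (adjusted p = 0.033, edgeR) and 0.60 at 4 weeks (0.013), and *Rfx5* had a mean effect of 0.07 (0.6). Of 5 NF-κB subunits and inhibitors 0 fell at any time by any of these 3 measures, again near the background. *Rela* rose by 0.39 at 4 weeks (0.04). MHC class II genes, which present antigen to CD4 T cells, were read at low counts. Of the 4 of 6 tested, 0 were called at any time in edgeR or DESeq2, which for 4 genes was near the background. At an unadjusted p under 0.05 1 was higher and 1 lower at Day 3.

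Part of the interferon signal transduction list fell at 4 weeks and in the mean of the time points. Of its 12 genes reported here, 0 fell at Day 3 (2 at an unadjusted p under 0.05, 1 in DESeq2), 2 on Day 7 (5 and 5), 4 after 4 weeks (7 and 5) and 6 in the mean, with 0 higher by either tool or unadjusted. The shares of all genes called lower were 5.13%, 7.93%, 11% and 20.3%, so the edgeR counts on Day 3 and Day 7 were near the background. *Irf9*, the DNA-binding part of the complex that carries type I interferon signals to the nucleus, was at 26.9 and 35.5, 57.5 and 58.4, and 53.3 and 55.2 CPM in controls, and at 20.2 and 33.2, 25.4 and 32.7, and 28.9 and 29.4 CPM with *Sox17*-*Erg*. Only at Day 3 did its groups overlap. It fell by 0.998 at Day 7 (adjusted p = 0.016, edgeR) and 0.897 at 4 weeks (0.019). *Ifnar2*, a type I interferon receptor chain, fell by 0.59 (0.014) and 0.79 (0.0025) at these times. *Stat2* fell by 1.03 (0.047) and *Ifngr1*, the ligand-binding interferon-γ receptor chain, by 1.06 (0.028) at 4 weeks. Not called in the mean were *Irf1*, at -0.19 (0.16), and *Jak2*, at -0.05 (0.64).

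Interferon-induced genes outside antigen presentation were listed beside them. Of 18, 1 fell on Day 3, 9 on Day 7, 5 after 4 weeks and 13 in the mean of the time points, and the medians were -0.36, -1.30 and -0.91 at the 3 times. Against the shares of all genes (5.13%, 7.93%, 11% and 20.3%) the count on Day 3 was near the background. DESeq2 called 1, 12 and 8 lower, and 1, 16 and 9 were lower at an unadjusted p under 0.05. None rose in edgeR or DESeq2, and at an unadjusted p under 0.05 1 was higher at Day 3. *Iigp1*, an immunity-related GTPase, was at 2.69 and 4.12, 27.0 and 12.9, and 14.9 and 24.1 CPM in controls, against 1.57 and 3.66, 2.87 and 3.82, and 7.61 and 7.82 CPM with *Sox17*-*Erg*. Control levels rose after Day 3 and the treated ones stayed low at Day 7. It fell by 2.58 at Day 7 (adjusted p = 0.0063, edgeR), 5.99-fold. *Ifit1*, which binds foreign RNA, fell by 2.14 (0.018) at Day 7, and *Irf7*, the regulator of type I interferon genes, by 1.88 (0.023). *Gbp3*, a guanylate-binding protein, fell by 1.65 at Day 7 (0.0052) and 1.16 at 4 weeks (0.017). The gene called on Day 3 was *Gbp2*, of the same family, at -0.75 (0.045).

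Of 5 ligands of lymphocytes and natural killer cells tested, 0 fell at any time in edgeR, in DESeq2 or at an unadjusted p under 0.05. In edgeR 5.13%, 7.93% and 11% of all genes were lower at the 3 times, so the count of 0 was near the background. The mean effect was -0.68 for *Cd274*, which encodes PD-L1 (adjusted p = 0.14, edgeR), and 0.49 for *Ulbp1*, an NKG2D ligand (0.039). *Rae1*, which rose by 0.46 at Day 3 (0.03), stood in that list by its symbol and encodes an mRNA export factor.

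**Figure D3:**
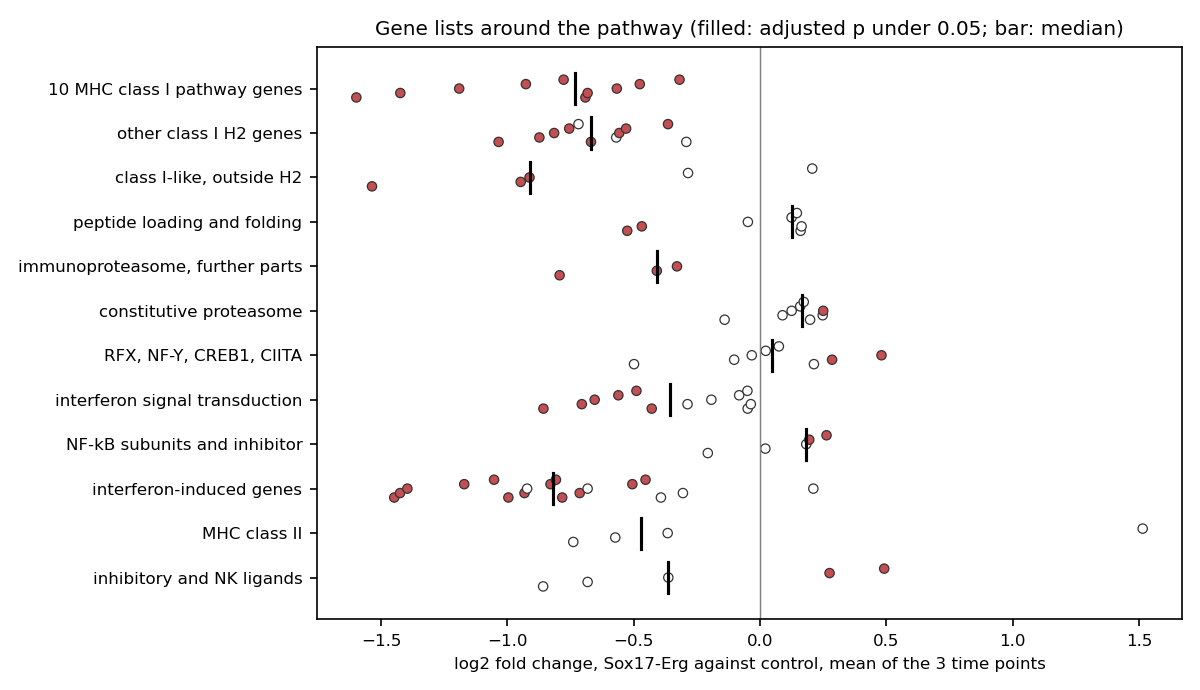
Each point is a gene, placed by its log2 fold change of *Sox17*-*Erg* against control averaged over the 3 time points (horizontal axis), filled where the adjusted p is under 0.05, in rows by gene list with a bar at the list's median; vertical offsets only separate points. The 10 pathway genes (median -0.73), the other class I *H2* genes (-0.67) and the interferon-induced genes (-0.82) lie mostly left of 0, and the constitutive proteasome (0.17) and the partners of NLRC5 (0.05) lie around it.

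Markers of some other cell types also differed between treatments. Of the 8 leukocyte and macrophage markers tested, 0 were called, higher or lower, at any time or in the mean. This held in edgeR, in DESeq2 and at an unadjusted p under 0.05. Of all genes 5.13%, 7.93%, 11% and 20.3% were lower in edgeR at the 3 times and in the mean. The 10 leukocyte and macrophage markers, of which most counts were *Lyz2* and of which *Cd3e* and *Cd79a* were under 0.5 CPM throughout, summed to 258.8 to 371 CPM in controls at Day 3 and 733.1 to 1179 CPM at Day 7, against 227.5 to 274.1 and 214.2 to 397.3 CPM with *Sox17*-*Erg*. At 4 weeks the sums were 43.6 and 364.6 CPM in controls and 55.3 and 260.2 CPM with *Sox17*-*Erg*, lowest in both replicate 1 libraries, where *Tyrobp* was at 0.226 and 0.708 CPM. Between those 2 libraries 9 of the 10 pathway genes were lower with *Sox17*-*Erg*, with a median log2 difference of -0.98. Between the replicate 2 libraries of 4 weeks, 10 of 10 were lower, with a median of -0.72. Both comparisons set a single library against a single library. The share of all genes lower between them is not given here, so these counts have no background. *H2-D1*, which rose with time in culture, was at 958.6 CPM in the 4-week control library with the lowest leukocyte sum and at 907.6 CPM in the other. The part of leukocytes in this was not tested.

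The 5 epicardial and mesothelial markers were also lower with *Sox17*-*Erg*, at 115.2 to 188.6, 217 to 308.9, and 158.4 to 246.9 CPM against 254.3 to 679.7, 502 to 965.7, and 868.4 to 1364 CPM in controls. The 5 cardiomyocyte markers summed to 320.7 to 392.6, 350.4 to 444.7, and 664.7 to 677.5 CPM with *Sox17*-*Erg* against 870.1 to 1495, 603.5 to 853.9, and 1024 to 1253 CPM in controls. Of them 1, 2 and 3 fell at the 3 times and 5 in the mean, beside 5.13%, 7.93%, 11% and 20.3% of all genes. The 5 smooth muscle and pericyte markers summed to 3259 in both libraries, 1388 to 3043, and 2610 to 3012 CPM with *Sox17*-*Erg* against 2312 to 2487, 377.9 to 745.7, and 615.1 to 1482 CPM in controls. The numbers that rose were 1, 5 and 4 at the 3 times and 5 in the mean, beside 7.19%, 9.48%, 11.9% and 22% of all genes. In both lists the sums of the groups were apart at each time. The 7 fibroblast markers summed to 12430 to 29790 CPM in controls and 8547 to 30900 CPM with *Sox17*-*Erg*. Of these 7, 1 fell at Day 3, 3 at Day 7 and 4 at 4 weeks, beside 5.13%, 7.93% and 11% of all genes. The count at Day 3 was near the background. At 4 weeks *Lum* was 10.5-fold, *Dcn* 9.91-fold, *Pdgfra* 4.91-fold and *Tcf21* 4.41-fold lower. *Col1a1*, a collagen chain, was on the other side at Day 7, at 16240 and 14320 CPM against 9049 and 9578 CPM in controls, and 1 of the 7 was called higher there in DESeq2 and 0 in edgeR. Of the 5 epicardial and mesothelial markers 1 fell at Day 3, 3 at Day 7 and all 5 at 4 weeks, beside 5.13%, 7.93% and 11% of all genes. Among them *Msln*, mesothelin, fell by 2.40 at 4 weeks (adjusted p = 0.011, edgeR). The part of these markers in the result was not tested.

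**Figure D4:**
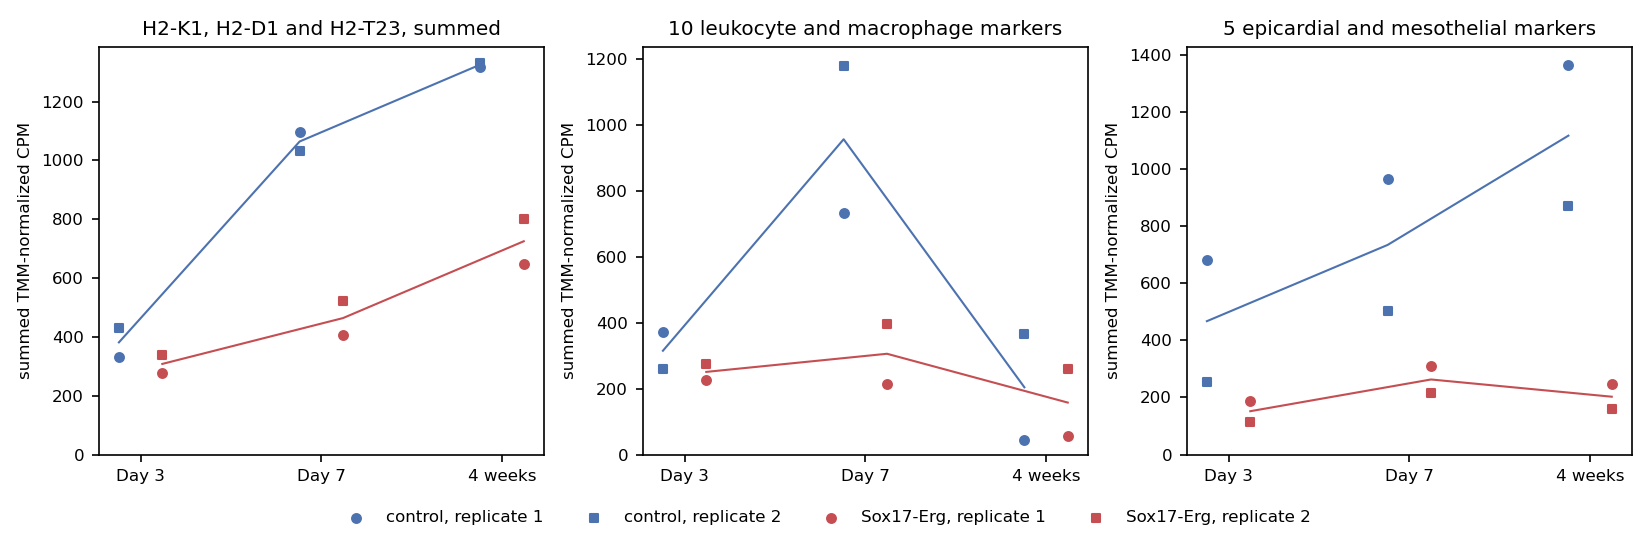
Summed TMM-normalized CPM (vertical axes from 0, separate scales) against time for the 3 heavy chains, 10 leukocyte and macrophage markers and 5 epicardial and mesothelial markers, with control in blue, *Sox17*-*Erg* in red, circles for replicate 1, squares for replicate 2 and lines joining the group means. At 4 weeks the leukocyte sums of the 2 groups overlap and those of the heavy chains (1319 and 1333 against 648.7 and 802 CPM) and of the epicardial markers do not.

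Leaving out single libraries changed several of the calls among the 10 genes, and the share of all genes called lower is given beside each. The 1 call at Day 3 was lost without replicate 1 or replicate 2 of the Day 3 controls, when 0.733% and 1.03% of all genes were lower in place of 5.13%, or without replicate 1 of *Sox17*-*Erg* at Day 3 (0.41%). Without either *Sox17*-*Erg* library of Day 7, 3 genes were called (5.49% and 6.19% of all genes). The 7 calls at Day 7 became 1 (*H2-D1*) without replicate 1 of *Sox17*-*Erg* at Day 7, as the share of all genes went from 7.93% to 1.84%, and 3 and 2 without replicate 1 and replicate 2 of its controls (6.06% and 3.64%). Without replicate 2 of *Sox17*-*Erg* at Day 7 they were 7 (7.99%). The 4 at 4 weeks became 0 without replicate 1 of *Sox17*-*Erg* at 4 weeks (4.01% of all genes in place of 11%), 2 without its replicate 2 (7.21%), and 1 without either control of 4 weeks (5.3% and 7.42%). Without control libraries of other times they were 2 (replicate 1 of Day 3, 8.82%, and each of Day 7, 10.5%) or 1 (replicate 2 of Day 3, 8.16%). In these fits the group left with 1 library was taken to vary as the others do. The mean of the 3 time points kept 9 or 10 calls in each of the 12 fits that left out a library, in which 15.5% to 20.7% of all genes were lower.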

How the data were processed

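The authors trimmed the reads with BBDuk, quantified them with Salmon (version and annotation not given in the sources used here; mm10 in the submitters' processing notes) and deposited estimated counts per gene, rounded to whole numbers and not normalized. Symbols, lengths and overlaps came from GENCODE M21 (GRCm38), which held 35493 of the 35727 genes; promoters came from RefSeq (GRCm38.p6). Counts of 12 libraries, grouped by treatment and time from the labels, were fitted with edgeR 4.0.16 in R 4.3.3: TMM factors, filterByExpr (minimum count 10, minimum total 15), 1 mean per group, a quasi-likelihood test with 6 residual degrees of freedom, and Benjamini-Hochberg adjustment over 15506 genes. CPM are TMM-normalized. The test was also run on simulated counts with known changes, and the outcome is not given here.

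The members, lists and tests were chosen with earlier results of these data known. The 10 members and, of each list, up to 4 genes called at a time point were named, by mean effect; the 5 genes nearest the members' mean z-score (log2 CPM, prior count 2) were named as a description. *Calr*, *Tapbpl*, *Rfx5*, *Irf1*, *Jak2*, *Ifnar2*, *Gbp2*, *Cd274* and *Ulbp1* were added after their values were seen. Among the cell type markers, *Lyz2*, *Cd3e*, *Cd79a*, *Tyrobp* and *Col1a1* were named though not called at a time point. *Msln*, at rank 4 of its list, was named without the markers ranked before it.

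Replicate numbers come from the titles in the labels, and the library names number the replicates differently. From Day 3 to 4 weeks, the deviations of control and *Sox17*-*Erg* libraries of equal number had correlations across genes of 0.19, 0.30 and 0.17. Within a treatment these were 0.17 (control) and 0.22 (*Sox17*-*Erg*) between Day 3 and Day 7. Between 4 weeks and the earlier times they were -0.11 to -0.05. The labels do not say whether replicates are separate isolations, so p-values measure the spread between these libraries. Alternatives were DESeq2 1.42.0, its size factors, no filter, a threshold of 0.01, a log2 fold change of at least 1, replicate blocks, and leaving out each library. The block within time points, a GC-content offset and the Day 7 against Day 3 comparisons were added after seeing the data. No protein sequences were used here, and 1 gene of the interferon signal transduction list is not reported here.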

Additional observations from a re-analysis of the deposited data

How the results depend on the processing

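With 2 libraries a group, counts of called genes at a single time point depended on the setting, and the direction of *Sox17*-*Erg* against control at each time point did not, except for *Tapbp* at 4 weeks, which was at -0.025 without replicate 1 of the controls, at -0.029 without replicate 1 of *Sox17*-*Erg* and at 0.093 without replicate 2 of the controls, the ends of its range. The genes called lower at Day 3, 1 in the report, were 0 at an adjusted p under 0.01 and 0 with a minimum log2 fold change of 1, 5 with no filter, 4 in DESeq2, 4 with the replicate block over all libraries and 4 with the replicate block within time points. Over all genes the share lower was 5.13% in the report and 0.755%, 2.97%, 5.19%, 9.21%, 6.64% and 10.4% in these settings. At Day 7, 7 became 2 at the stricter p and 4 with the minimum fold (7.93% of all genes, then 2.64% and 5.15%), and at 4 weeks 4 became 1 and 1, 7 with the replicate block within time points and 2 with the GC-content offset (11%, then 4.79%, 6.47%, 15.5% and 10.2%). The mean of the time points kept 3 of 10 with the minimum fold (20.3%, then 7.53%). From Day 3 to 4 weeks the 5 that rose became 2 and 2 in controls and 2 and 2 in *Sox17*-*Erg* with these stricter rules (13.9% of all genes, then 6.11% and 6.82%, and 15.1%, then 7.25% and 8.19%). From Day 3 to Day 7 the 4 in controls became 1 and 2, or 6 with either replicate block, with no filter and in DESeq2, and the 1 in *Sox17*-*Erg* became 0 and 0, 3 with no filter, 2 in DESeq2 and 4 with the replicate block within time points. The shares of all genes higher were 4.7% in controls, then 0.845% and 2.86%, 5.58% and 9.83% with the blocks, 5.32% with no filter and 8.69% in DESeq2, and 2.04% in *Sox17*-*Erg*, then 0.0709% and 1.35%, 4.31%, 6.93% and 8.03%. The interaction at 4 weeks, 0, became 1 with the replicate block within time points and 1 in DESeq2, and that at Day 7 became 1 with no filter and 1 in DESeq2. Of all genes 3.21% were called in the first, then 6.89% and 7.22%, and 0.0838% in the second, then 1.76% and 1.94%. Leaving out 1 library gave 0 to 3 lower at Day 3, 1 to 7 at Day 7, 0 to 4 at 4 weeks and 9 to 10 in the mean, 2 to 6 higher at 4 weeks in controls and 2 to 6 in *Sox17*-*Erg*, 1 to 5 and 0 to 1 higher at Day 7, and 0 to 0 for the interactions. The stricter rules call fewer genes by construction; otherwise the cause was not tested. Single-gene effects at the 3 time points were also tallied under these settings, without the stricter rules. Of them 449 kept direction and side of the threshold, 35 passed it newly, 54 no longer did and 2 changed direction. The lowest counts of a library were 12 for *Nlrc5* and 19 for *Psmb9*.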
